A study of Mus musculus with 3 samples.

Results

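The MYC and MAX network is a group of transcription factors, and its 10 genes were taken by symbol from the gene tables of mouse T-helper 1 (Th1) cells: Myc, Mycn, Max, Mxi1, Mxd1, Mxd3, Mxd4, Mnt, Mga and Mlx. All 10 were found among the 50600 genes counted. The cells were primary Th1 cells of strain C57BL/6NJ, helper cells known for interferon gamma, and the file headers place them at 72 hours and call them sorted. There was 1 group of 3 libraries, numbered as biological replicates under 1 donor record, with no treatment or comparison group in the labels, sex not collected and age unknown. Nothing in the labels says whether the replicates came from separate animals or cultures, so the spread given below may be partly technical. The labels give total RNA as the assay, but the title of the library protocol they link to speaks of polyadenylated RNA.

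MYC and its relative MYCN bind DNA only as dimers with MAX, through a basic helix-loop-helix leucine zipper, at the E-box CACGTG, and they raise transcription of genes for growth and metabolism. The MXD proteins, MXI1 and MNT compete for MAX and recruit the SIN3 corepressor to the same sites, and MGA joins MAX to a Polycomb complex. MLX is a MAX-like protein whose partners are MLXIP and MLXIPL, which respond to sugars, and also MNT and some MXD proteins. In T cells, Myc is induced on activation and is needed for the growth that precedes division, while several MXD genes are known for their expression in resting or differentiating cells.

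Of the network genes, 9 had an entry among RefSeq promoter windows (build GRCm38.p6), each reaching from 250 bases before to 50 bases after a gene start, and 4 of the 9 held CACGTG, which reads the same on both strands. Of all genes listed there, 8.09% had a window with this motif. Myc had no entry. The 4 matches are shown because CACGTG is the sequence that the proteins of the network themselves bind. They are printed 5′ to 3′ on the strand of the gene, with CACGTG in capitals and 30 bases on each side.
Max (chr12:76962216-76962281, minus strand): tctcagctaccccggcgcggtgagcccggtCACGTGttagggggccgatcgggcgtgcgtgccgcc
Mlx (chr11:101087220-101087285, plus strand): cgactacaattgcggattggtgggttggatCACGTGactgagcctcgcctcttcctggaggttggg
Mnt (chr11:74830771-74830836, plus strand): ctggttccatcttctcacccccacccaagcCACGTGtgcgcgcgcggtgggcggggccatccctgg
Mxd4 (chr5:34187894-34187959, minus strand): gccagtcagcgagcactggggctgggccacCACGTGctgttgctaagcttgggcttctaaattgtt
The match began at position -3 from the RefSeq gene start in Max, -40 in Mlx, -123 in Mnt and -219 in Mxd4. These starts can differ from the ends of the gene coordinates given below, which are those of the deposited files. The windows of Mycn, Mxd1, Mxd3 and Mga and the 3 windows of Mxi1 did not hold these letters. A match is a run of letters and not a measured binding site.

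The libraries held 4482916, 266790 and 3733531 counts in replicates 1, 2 and 3, so replicate 2 was 16.8-fold shallower than replicate 1. Levels are given in TPM, counts divided by exon length and scaled to the same total in each library, which lets genes be compared with each other. Genes whose exons overlap exons of a gene on the other strand took 51.7%, 55.1% and 66.5% of all counts. They made up 16.2% of all genes, many of them hardly counted, and 22.1% of protein-coding genes. Of the 11595 genes with a mean count of at least 10, they were 4662. For such genes, called overlapped below, the counts of both strands may be mixed, and whether the counted strand is that of the RNA was not tested. The 4 T-cell markers checked had means of 18.3 TPM or more, and the Th1 genes Ifng and Tbx21 had 604 ± 252 and 70.5 ± 22.1 TPM (SD, n = 3). The lowest T-cell marker was Cd3e (overlapped), with 292, 1 and 157 counts. Of 10 markers of B, myeloid, natural killer and erythroid cells, 8 were at 0 counts in every library. The exceptions were Cd79a (8.23 ± 4.00 TPM) and Csf1r (111 ± 25.05 TPM), and Csf1r is overlapped by Hmgxb3. Of 6 markers of other T-cell fates, Il17a and Cd8a were at 0 counts, and 1, Foxp3 (overlapped), had at least 10 TPM (64.9 ± 2.73).

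All 10 genes of the network had a mean of at least 1 TPM, against 47.8% of protein-coding genes, and 6 had at least 10 TPM, against 27.3%. Only 7 of the 10 reached 1 TPM in every library, because Mxd1, Mxd4 and Mycn had 0 counts in the shallow replicate 2. Without replicate 1, 8 of the 10 reached 1 TPM. The order of the means was Mxd3, Myc, Mlx, Max, Mxi1, Mga, Mnt, Mxd1, Mxd4 and Mycn. Between neighbours in this order, the ranges over libraries did not overlap from Mxd3 to Myc, from Myc to Mlx, from Max to Mxi1 and from Mnt to Mxd1. They overlapped for Mlx and Max, for Mxi1, Mga and Mnt, and for Mxd1, Mxd4 and Mycn. Of the 10 genes, 4 are overlapped, namely Mxd3, Mlx, Mxi1 and Mxd4. This compares with 4662 of 11595 genes with a mean count of at least 10, and 22.1% of protein-coding genes.

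**Figure D1:**
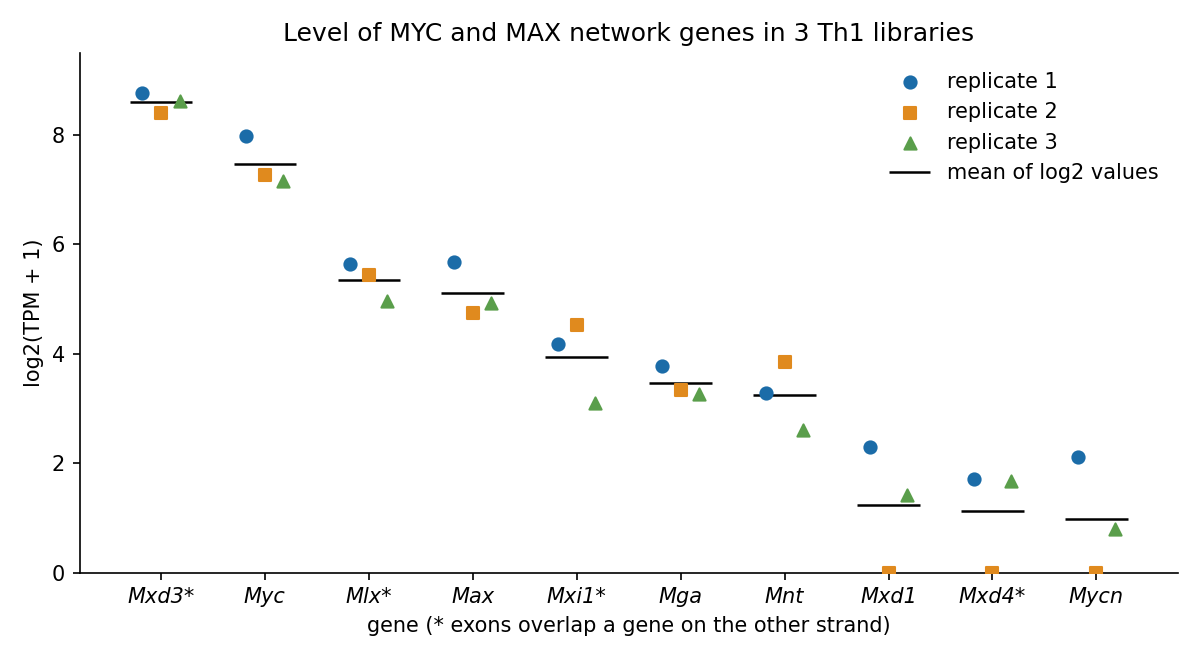
Level of each network gene on the log2(TPM + 1) scale, by gene in order of mean TPM; points are the 3 libraries, bars the mean of the log2 values, and an asterisk marks the 4 overlapped genes. Mxd3 and Myc lie above all others in each library, and Mxd1, Mxd4 and Mycn are at 0 in replicate 2.

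Myc, the activator of the network, was abundant. It had 252, 154 and 143 TPM in replicates 1, 2 and 3 (1431, 54 and 789 counts), a mean of 183 ± 60.1 (SD, n = 3). Its exons overlap no gene on the other strand (chromosome 15, 61985391 to 61990374, GRCm38, 4 exon blocks). That mean was above those of 98.1% of protein-coding genes and placed Myc 417th among 21764. This ranking includes the 22.1% of protein-coding genes that are overlapped, whose own levels are uncertain. Replicate 1 was the highest library, and the 95% counting intervals of replicates 2 (116 to 201 TPM) and 3 (133 to 153 TPM) overlapped. When TPM was scaled over genes with no overlap alone, Myc had 642, 416 and 571 TPM, so that replicate 3 then stood closer to replicate 1 than to replicate 2.

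Mycn, which encodes the form of MYC best known from embryonic and neural tissue, was near the counting floor (chromosome 12, 12936096 to 12941914). It had 3.34, 0 and 0.746 TPM (23, 0 and 5 counts). In replicate 2, where 3 counts would be 7.05 TPM, a level like that of replicate 1 was not detectable. Myc was 75.4 times Mycn in replicate 1 and 191 times in replicate 3, and at least 21.8-fold higher in replicate 2, taking 3 counts as the floor of that library. The third family member, Mycl, had 1, 0 and 2 counts.

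Max, the partner that MYC and its antagonists share, had 50.2, 25.8 and 29.6 TPM (378, 12 and 217 counts), a mean of 35.2 ± 13.1 (SD, n = 3). It has no overlap (chromosome 12, 76937269 to 76962201). Replicate 1 was again the highest, and the interval of replicate 2 (13.3 to 45.1 TPM) held the value of replicate 3. Scaled over genes with no overlap alone, Max had 128, 69.8 and 119 TPM, so replicate 3 then stood closer to replicate 1. Within each library Myc was 5.01, 5.96 and 4.81 times Max. To test such differences, log2(TPM + 1) of each of 11594 genes with a mean count of at least 10 was set against that of Max within each library (limma). By this test 16.6% of genes were above Max and 50.2% below it. Myc was above Max by 2.35 ± 0.32 (SE) on the log2 scale, in 3 of 3 libraries (limma, adjusted p = 0.00199).

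Of the 8 other network genes that could be tested against Max, 2 were above it, 4 were below it and 2 did not pass. Mycn fell just short of the minimum, with a mean count of 9.33, while Mxd4 with 26 was tested. The median difference from Max was -1.20 over all genes tested, so most genes were below Max and a position below it is the usual one.

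**Figure D2:**
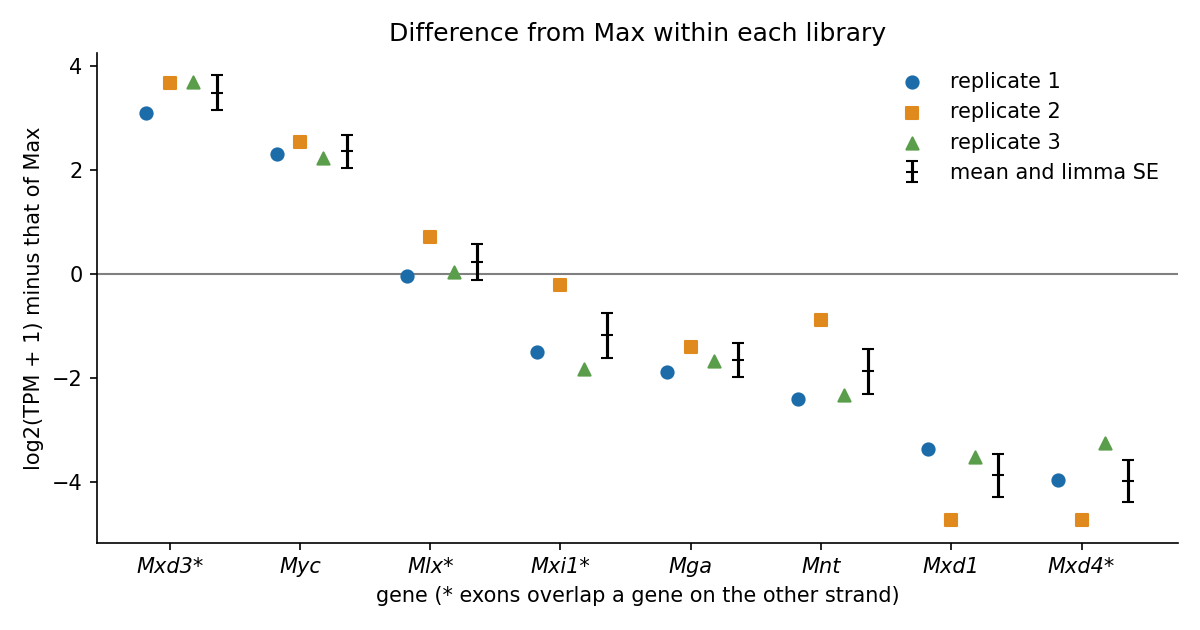
Difference of each network gene from Max within a library, in log2(TPM + 1); points are the 3 libraries, and the black marks are the mean with the SE from limma. Mxd3 and Myc lie above 0 in each library, Mlx lies around 0, and the other 5 genes lie below it.

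Mxd3 had the highest level of the network, though its count may hold another gene's RNA. The gene (chromosome 13, 55325168 to 55329758) encodes an antagonist known from dividing cells. It had 437, 338 and 395 TPM (1901, 91 and 1675 counts), a mean of 390 ± 49.4 (SD, n = 3), and was above Max by 3.48 ± 0.34 (SE; limma, adjusted p = 0.00101). It exceeded Myc 1.73, 2.20 and 2.77 times within the 3 libraries, with a log2 difference of 1.13 ± 0.29 (SE; limma, adjusted p = 0.0151). The difference from Myc did not pass without replicate 1 (limma, adjusted p = 0.0541) or without replicate 3 (limma, adjusted p = 0.194).

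The last 104 bases of Mxd3 (chromosome 13, 55325168 to 55325271), all in its untranslated region, are also exon of Prelid1 on the other strand, a gene for a mitochondrial lipid-transfer protein. Prelid1 had 1165, 64 and 648 counts, or 512, 455 and 292 TPM. Counts per gene do not show where within Mxd3 its fragments lay, so RNA of Mxd3 and of its neighbour cannot be told apart here.

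The other MXD genes were far lower. Mxi1 (chromosome 19, 53310506 to 53375810), an antagonist related to Mxd1, had 17.0, 22.04 and 7.60 TPM (200, 16 and 87 counts), a mean of 15.6 ± 7.33. Its difference from Max was -1.19 ± 0.43 (SE) in 3 of 3 libraries and did not pass (limma, adjusted p = 0.0511). Without replicate 2, where Mxi1 was highest, it was -1.67 and passed (limma, adjusted p = 0.00827). Mxi1 shares 194 exon bases, 161 of them coding in Mxi1, with Gm10197 on the other strand. Gm10197 had 452, 39 and 644 counts, or 1075, 1502 and 1573 TPM, and the count of Mxi1 may hold its RNA.

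Mxd1 (chromosome 6, 86647042 to 86669161), an antagonist known for its rise as cells stop dividing, had 3.92, 0 and 1.67 TPM (58, 0 and 24 counts). It was below Max, with a log2 difference of -3.88 ± 0.41 (SE; limma, adjusted p = 0.00109). Mxd4 (chromosome 5, 34173883 to 34187720) had 2.25, 0 and 2.20 TPM (40, 0 and 38 counts) and was below Max, with a log2 difference of -3.99 ± 0.40 (SE; limma, adjusted p = 0.00106). It shares 514 exon bases with the antisense gene Gm42846 (178, 7 and 249 counts). In replicate 2, 3 counts would be 3.28 TPM for Mxd1 and 2.74 TPM for Mxd4, so the levels of Mxd4 elsewhere and that of Mxd1 in replicate 3 would not have been detectable there. With 0 counts in replicate 2, the size of both differences depends on the pseudocount, and at 0.1 in place of 1 they were -5.25 for Mxd1 and -5.38 for Mxd4 (limma, adjusted p = 0.0233 and 0.0209).

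Mnt and Mga, the antagonists with no overlap that were counted in every library, stood below Max in level. Mnt (chromosome 11, 74830920 to 74845725), the widely expressed antagonist that shares the SIN3 corepressor with the MXD proteins, had 8.68, 13.4 and 5.09 TPM (84, 8 and 48 counts), a mean of 9.05 ± 4.16. Its log2 difference from Max was -1.88 ± 0.43 (SE; limma, adjusted p = 0.0109). Mga (chromosome 2, 119897228 to 119969581), which encodes a very large protein with a T-box as well as the zipper that binds MAX, had 12.8, 9.08 and 8.61 TPM (409, 18 and 269 counts), a mean of 10.1 ± 2.27. It was below Max, with a log2 difference of -1.66 ± 0.33 (SE; limma, adjusted p = 0.0065). Both were lower than Max in 3 of 3 libraries. Without replicate 1 neither passed, with adjusted p = 0.0617 for Mnt and 0.058 for Mga (limma).

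Mlx (chromosome 11, 101087277 to 101092207), the MAX-like factor, was close to Max. It had 48.8, 42.6 and 30.2 TPM (204, 11 and 123 counts), a mean of 40.5 ± 9.46, and a log2 difference from Max of 0.23 ± 0.35 (SE; limma, adjusted p = 0.579). It was higher than Max in 2 of 3 libraries, and without replicate 2 the difference was -0.0066. Mlx shares 385 of its exon bases (19.3%) with Psmc3ip on the other strand (671, 37 and 756 counts), so its count may hold RNA of that gene. Of its dedicated partners, Mlxip (overlapped), which encodes MondoA, had 8.73 ± 1.98 TPM, and Mlx was 5.15, 4.17 and 4.66 times Mlxip. Mlxipl, which encodes ChREBP, had 0, 0 and 1 counts. Of 2 known targets of these factors, Txnip (overlapped), a brake on glucose uptake, had 11.9, 2.48 and 8.49 TPM, and Arrdc4 had 0, 0 and 1 counts. Both Mlxip and Txnip were below Max (limma, adjusted p = 0.00647 and 0.00437).

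Set against Myc in the same way, 7 of the 8 genes tested were below it and Mxd3 was above it. Of all genes, 86.2% were below Myc and 4.09% above it. The log2 differences below Myc ran from -2.12 for Mlx (limma, adjusted p = 0.00133) to -6.35 for Mxd4 (limma, adjusted p = 0.000259), the last being -7.76 with a pseudocount of 0.1. These 7 were below Myc in 3 of 3 libraries. The comparisons with Max and with Myc use the same libraries and are not independent.

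As messages per length, the antagonists of MYC together exceeded the activators only when Mxd3 was included. Myc and Mycn held 34.6%, 28.7% and 25.4% of the summed TPM of the 8 partners of MAX in replicates 1, 2 and 3, a mean of 29.6% ± 4.68 (SD, n = 3), and Mxd3 held 64.2% ± 5.49. Over the 5 partners with no overlap, Myc, Mycn, Mxd1, Mnt and Mga, the share of Myc and Mycn was 91.0%, 87.3% and 90.3%. With Mxd3 left out and the other overlapped genes kept, it was 82.6% ± 4.35. The partners with no overlap summed to 5.58, 6.83 and 5.36 times the level of Max. These are shares of RNA, and protein was not measured.

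**Figure D3:**
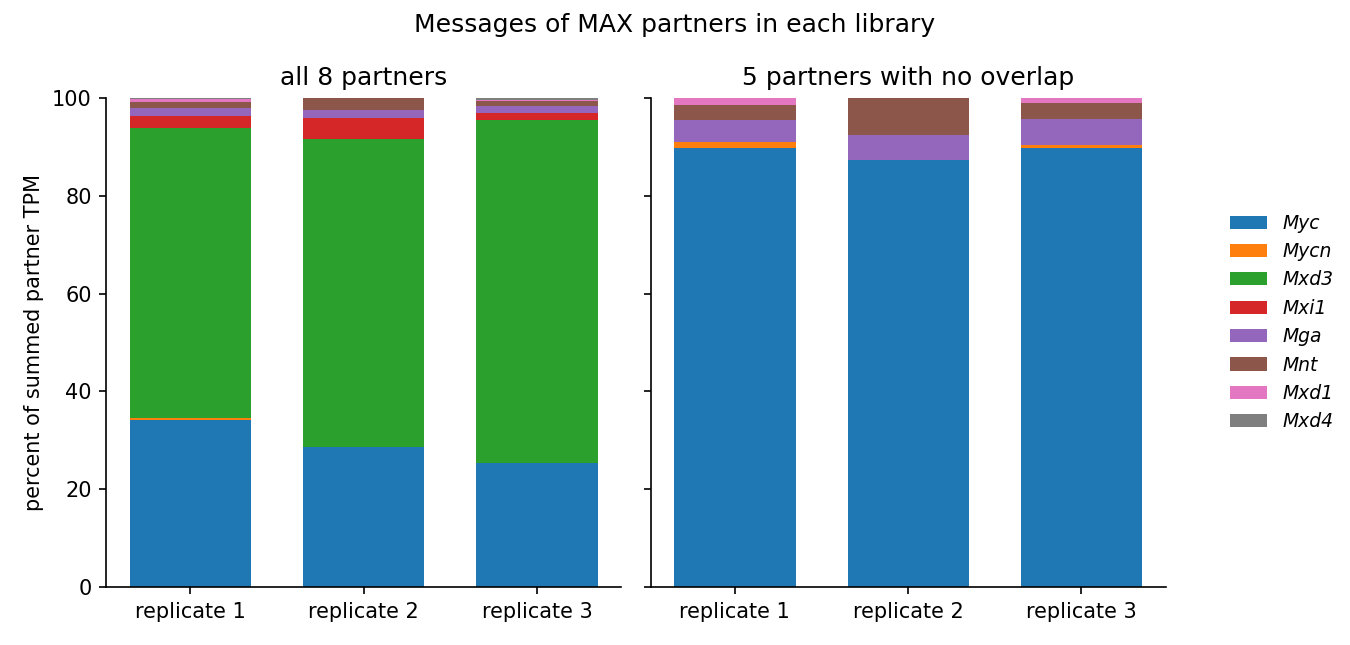
Percent of the summed TPM of MAX partners in each library, stacked by gene; the left panel holds all 8 partners and the right panel the 5 with no overlap. Mxd3 fills most of each bar on the left, and Myc fills at least 87.3% together with Mycn on the right.

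Replicate 3 differed from replicate 1 in a way that went with overlap. The ratio of depth-scaled counts of replicate 3 to replicate 1 was taken over genes with a mean count of at least 10. Its median was 0.686 over 6933 genes with no overlap (quartiles 0.605 and 0.800). Over 4662 overlapped genes the median was 1.15 (quartiles 0.727 and 1.64). Among network genes, Myc (0.662), Max (0.689), Mnt (0.686) and Mga (0.790) had ratios within the quartiles of genes with no overlap. Mxd3 (1.06) and Mxd4 (1.14), both overlapped, had ratios above 91.2% and 92.7% of genes with no overlap. Mlx (0.724) and Mxi1 (0.522) are overlapped too and did not have such high ratios, while Gm10197, Gm42846 and Psmc3ip, the genes across from Mxi1, Mxd4 and Mlx, had 1.71, 1.68 and 1.35. The ratio of Prelid1, across from Mxd3, was 0.668. Mxd1 (0.497) and Mycn (0.261, on 23 and 5 counts) were at the low end, though Mycn itself was under the minimum mean count.

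**Figure D4:**
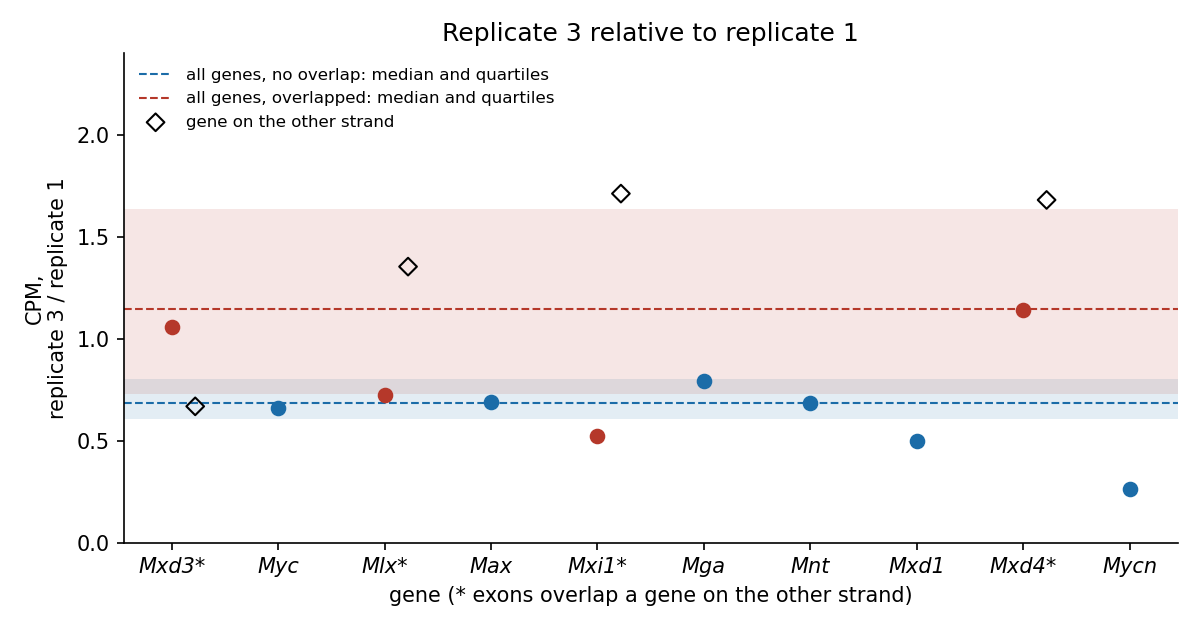
Counts scaled to library total (CPM) in replicate 3 divided by those in replicate 1, by gene. Dashed lines and bands are the median and quartiles of genes with a mean count of at least 10, with and without overlap. Diamonds are the genes across from overlapped members. Mxd3 and Mxd4 lie near the overlapped median of 1.15, and Myc, Max and Mnt near the median of 0.686.

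Variation between libraries beyond counting error was called with a chi-square test on counts, at an adjusted p under 0.05 and a ratio of the highest to the lowest library of at least 2. Of 9 network genes tested 1 was called, against 32.2% of 11595 genes. This was Mxi1 (overlapped), highest in replicate 2 and lowest in replicate 3 (ratio 2.14, chi-square test, adjusted p = 0.000629). For 4 others the adjusted p was under 0.05 with a smaller ratio, which was 1.90 for Max, 1.70 for Mxd1, 1.602 for Myc and 1.58 for Mxd3. Mxi1 was not called without replicate 2 or without replicate 3.

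Genes that work with the network were read from lists against Max and Myc. Of 20 textbook MYC targets, 12 were above Max, where 16.6% of all genes were, 0 were below it, where 50.2% were, and 8 did not pass. With voom weights, and also without replicate 2, 4 of them (Bcat1, Eif4e, Nme1 and Polr1b) were below Max. In these settings 6984 of 11594 and 7579 of 12256 genes were below it. The median difference from Max was 1.49, against -1.20 over all genes. The highest were Npm1, a nucleolar chaperone (2293 ± 699 TPM), lactate dehydrogenase Ldha (909 ± 267) and nucleolin, Ncl (551 ± 124). Odc1, the rate-limiting enzyme of polyamine synthesis and a classic MYC target, had 439, 298 and 217 TPM. Of the 12 above Max, 8 have no overlap. The 8 that did not pass included the nucleolar methyltransferase Fbl (43.6 ± 8.64 TPM), the pyrimidine enzyme Cad (43.2 ± 11.3) and the amino acid transaminase Bcat1 (overlapped, 19.4 ± 4.97). Such targets are high in many growing cells, and their levels do not measure MYC activity.

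Of 8 MYC coactivators 2 were above Max (16.6% of all genes) and 2 below it (50.2% of all genes). Above were the paired ATPases Ruvbl1 (120 ± 57.1 TPM) and Ruvbl2 (overlapped, 158 ± 32.9). The scaffold Trrap (9.42 ± 2.47) and the remodeller Ep400 (14.5 ± 4.73) were below. The count below was 0 without replicate 1, 4 without replicate 2, 1 without replicate 3, where Ep400 was lost, and 4 with voom weights. Over all genes, 3547 of 10803, 7579 of 12256, 4447 of 11271 and 6984 of 11594 were below in these settings. Of 9 genes of the SIN3 corepressor, the deacetylase Hdac1 (74.99 ± 21.1) and the histone chaperone Rbbp7 (overlapped, 171 ± 45.5) were above Max, and Sin3b (9.65 ± 7.77) and Suds3 (9.23 ± 4.11) were below, against the same 16.6% and 50.2%. Hdac1 did not pass without replicate 1 (limma, adjusted p = 0.138) or without replicate 3 (limma, adjusted p = 0.174), which left 1 gene above. Over all genes, 1547 of 10803 and 1352 of 11271 were above in these settings. The other scaffold, Sin3a (overlapped), had 26.2 ± 8.89 TPM and was among the 5 that did not pass. The list medians were -0.35 for coactivators and 0.19 for the corepressor.

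Of 9 genes of the Polycomb complex that holds MGA, 6 were below Max, where 50.2% of all genes were, and 1 was above, where 16.6% were. The count below was 1 without replicate 1 and 1 without replicate 3, which was Rybp both times. Over all genes, 3547 of 10803 and 4447 of 11271 were below in these settings. The gene above was the E2F partner Tfdp1 (95.8 ± 15.2 TPM), which did not pass without replicate 3 (limma, adjusted p = 0.0708). The subunit that defines the complex, Pcgf6, had 16.7 ± 5.76 TPM, and L3mbtl2 (overlapped) had 12.8 ± 4.00. E2f6, which helps bring the complex to DNA, had 20.2, 89.5 and 10.3 TPM, so its mean rests on replicate 2.

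Of 10 genes that set the stability of MYC protein, 4 were below Max and 1 above, against 50.2% and 16.6% of all genes. Without replicate 2, 7 were below, as were 7579 of 12256 genes tested. Fbxw7, the ubiquitin ligase subunit that marks phosphorylated MYC for decay, had 10.3, 12.1 and 4.67 TPM and was below Max, with a log2 difference of -1.88 ± 0.41 (SE; limma, adjusted p = 0.00891), a call lost without replicate 3 (limma, adjusted p = 0.0529). Usp28 (3.12 ± 1.06 TPM), which can remove that mark, and the ligase subunit Skp2 (2.51 ± 1.80 TPM) were also below. Of the kinases whose phosphorylation of MYC is read by Fbxw7, Gsk3b (6.03 ± 2.22 TPM) was below Max. Gsk3a (149 ± 16.8 TPM) was above it and is overlapped. The ligase Huwe1 had 31.0 ± 7.17 TPM and did not pass.

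**Figure D5:**
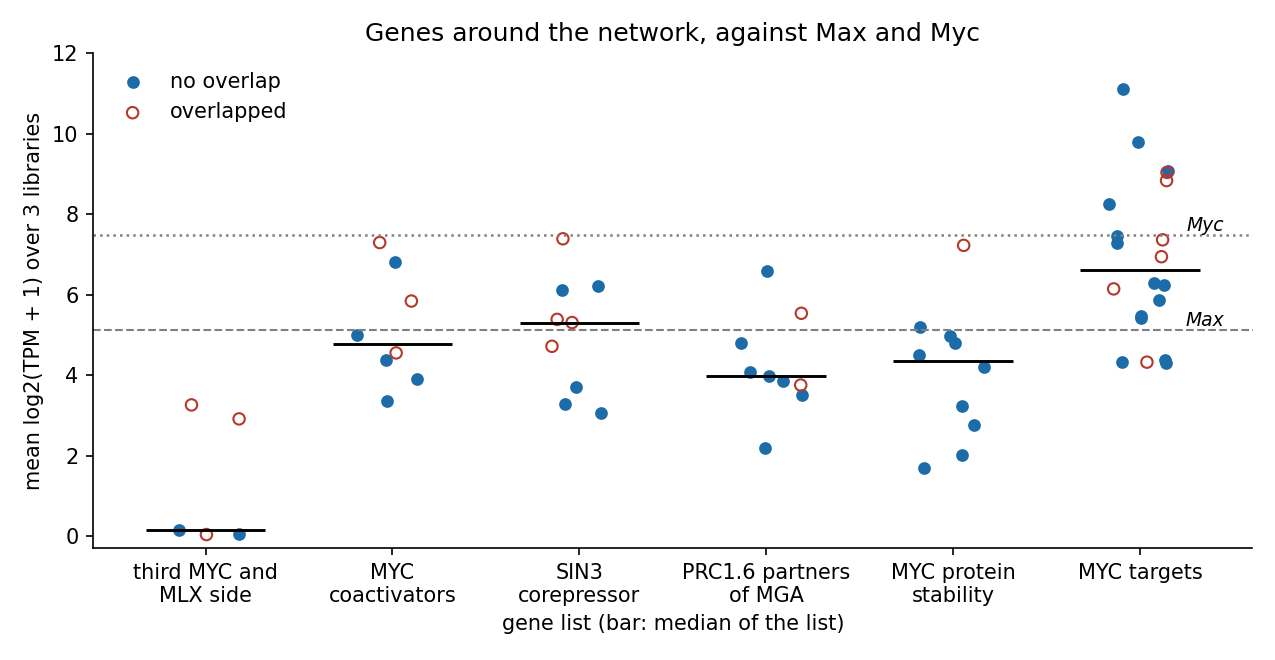
Mean log2(TPM + 1) over the 3 libraries of each gene in 6 lists; filled points have no overlap, open points are overlapped, bars are list medians, and lines mark Max and Myc. The MYC targets have the highest median, and only that list holds genes with a mean above that of Myc.

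In level over the 3 libraries, the protein-coding genes without overlap nearest to Myc were Lck, the kinase next to the T-cell receptor, the AP-1 factor Batf and the GTPase Rac2. Their distances on the log2(TPM + 1) scale were 0.102, 0.160 and 0.180. Nearest to Max were Ctbp1, Pola2 and Ecd, at 0.0793, 0.0885 and 0.0982. With 3 libraries this likeness is mostly one of mean level.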

How the data were processed

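RNA of 3 Th1 libraries was deposited as raw gene counts, with a file for each library, made by the authors with featureCounts 1.4.6-p4 on mm10 with GENCODE mouse release 13, both ends mapped and strand setting 1, per the file headers. For the aligner, a version was not stated by labels or headers. Value columns left unused numbered 0. Names and coding regions came from GENCODE release 21 (GRCm38, the assembly of mm10), which matched 50376 of 50600 genes. Coordinates of genes and overlaps are those of the deposited files.

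TPM was computed from counts and deposited exon length. A gene was overlapped if any exon base lay in an exon on the other strand. Differences from Max and Myc were tested with limma 3.58.1, two-sided, on log2(TPM + 1), which shrinks differences of low genes, with Benjamini-Hochberg adjustment over all genes with a mean count of at least 10 and a threshold of 0.05. The chi-square test used TMM library sizes (edgeR 4.0.16), compares libraries and holds counting error only. For its ratio, a library under 3 counts was set to 3 in the denominator. Counting intervals are exact Poisson at 95%. Neither intervals nor floors include more than counting error, as PCR copies of a molecule are not independent. Alternatives changed the pseudocount, filter, scaling (also DESeq2 1.42.0 size factors), weights and libraries. Procedures were tested on simulated data.

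Named were the network genes, genes of 6 lists and cell type markers (per list the highest, the lowest and those a sentence is about), genes on the other strand, and the 3 genes nearest in level to Myc and to Max. Members and lists were chosen with earlier results of these data known. A planned comparison of protein sequences was not run, since protein sequences were not used here.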

Additional observations from a re-analysis of the deposited data

How the results depend on the processing

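Of 112 recalculated differences from Max or Myc, 104 kept direction and side of the threshold, 4 no longer passed, 3 newly passed and 1 changed sign. That was Mlx against Max, at -0.0066 without replicate 2 and up to 0.36 without another replicate. The 112 are not independent. The difference between Myc and Max is counted from both sides, and all differences from a reference share its values. The members differing from Max numbered 6 of 8, 8 of 9 with no filter on low values, 7 of 8 with voom weights, and 4 to 8 when 1 replicate was left out. Over all genes, those above and below Max were 1921 and 5822 of 11594 in the main setting. With no filter they were 2002 and 13948 of 19719, and with voom weights 2259 and 6984 of 11594. They were 1547 and 3547 of 10803 without replicate 1, 1899 and 7579 of 12256 without replicate 2, and 1352 and 4447 of 11271 without replicate 3. Mxi1 passed against Max with no filter (limma, adjusted p = 0.0421) and with voom weights (limma, adjusted p = 0.0011). The count differing from Myc was 7 to 9 when 1 replicate was left out, and MYC targets above Max numbered 10 to 13. Genes above and below Myc were 421 and 8422 of 10803 without replicate 1. They were 397 and 10629 of 12256 without replicate 2, and 292 and 9241 of 11271 without replicate 3. Members called between libraries, 1 of 9, were 3 of 9 with library totals and 0 of 9 with TMM over genes with no overlap, where 0 passed at an unadjusted p under 0.05 with the same ratio (chi-square test). Leaving out 1 replicate gave 0 to 1 (at an unadjusted p, 1 without replicate 2 and 0 without replicate 3), and DESeq2 size factors gave 1. At a minimum of 10 TPM, 6 of the 10 members remained, against 27.3% of protein-coding genes. Leaving out 1 replicate gave 8 to 10 members at 1 TPM. Mean TPM of each member was higher when scaled over genes with no overlap, so the printed levels depend on this choice. It was 543 in place of 183 for Myc, 106 in place of 35.2 for Max and 26.2 in place of 9.05 for Mnt. The share of Myc and Mycn among partners, 29.6%, was 89.5% over partners with no overlap and, in a setting chosen after seeing the data, 82.6% without Mxd3. Leaving out 1 replicate gave 27.0% to 31.7%. In replicate 2, 3 counts equalled 1.51 TPM for Mga and 11.6 TPM for Mlx, the ends of the range over members.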
